A study of Mus musculus with 8 samples.

Results

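Signalling by the bone morphogenetic proteins (BMPs), growth differentiation factors (GDFs) and transforming growth factor betas (TGF-betas) was examined in Thy1+ testis cells, comparing wild type (WT) mice with mice labelled Glis3KO2. The members are the genes whose mouse symbol is Bmp, Bmpr, Gdf, Tgfb, Tgfbr, Smad, Acvr or Grem followed by a number and at most 1 letter, together with Chrd and Nog. The rule goes by name and uses no measured value, though this set of genes was taken up with earlier results of these data known. There were 47 such genes, with 65 probes, among the 19096 named genes and 41174 probes of the array. A filter for signal above background kept 41 of the 47 members and 17512 of all genes.

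RNA came from pups at postnatal day 4, all of the C57BL/6 strain, with 4 samples of each genotype, each measured with Cy3 on a one-colour Agilent array. Thy1, a protein of the cell surface, serves to enrich the germ cells that found and maintain spermatogenesis, and the labels call the cells spermatogonial progenitors. Glis3 encodes a GLI-similar zinc finger transcription factor, and the mutant genotype is named Glis3KO2, or Glis3KO in the sample titles. The sources used here do not describe how that allele was made, nor whether the Glis3 probe lies in the altered stretch. No treatment was given to either genotype. The series' design text counts 3 testes per genotype where the labels hold 4 samples. The labels do not state whether samples of 1 genotype are separate animals, so each p-value reflects only the scatter of these samples and that scatter may be technical.

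BMPs, GDFs and TGF-betas are secreted dimers that bind complexes of type I and type II receptor kinases at the cell surface. The activated type I receptor phosphorylates receptor Smads, broadly Smad1, Smad5 and Smad9 for BMPs and Smad2 and Smad3 for TGF-betas and activins, which join Smad4 and act on genes in the nucleus. Smad6 and Smad7 block the receptors from inside the cell, and chordin and noggin trap BMPs outside it. In the mouse, BMP signals are needed to form primordial germ cells, and BMP4 and activins act on spermatogonia of the young testis.

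Values below are log2 signals of the probe standing for the gene, relative to the 75th percentile of the same array. Differences are Glis3KO2 minus WT on that log2 scale. The level of a probe depends on its sequence, so levels are compared between arrays and not between genes. Across the arrays, 86.0% to 90.3% of spots were well above background, no spot was saturated, and precision is limited by having 8 arrays. Glis3 lay at -1.09, -1.01, 0.57 and 0.60 in WT replicates 1 to 4 and at -1.98, -2.18, -1.18 and -1.32 in Glis3KO2 replicates 1 to 4. Every Glis3KO2 array was below every WT array (difference -1.43, SE 0.452; two-sided exact permutation p = 0.0286, the smallest that 70 labellings allow), while its limma adjusted p was 0.696. Its difference was -0.62 when WT replicates 3 and 4 were left out. WT replicates 3 and 4 lay both above or both below WT replicates 1 and 2 in Glis3 and in 6 of the 7 marker lists described after the members. The exception was the Leydig list, and in the endothelial list the gap was 0.18, the smallest of the 6. Without them the difference was smaller in size for 31 of the 41 kept members, and values without them are given beside many of the members.

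No member differed between the genotypes past the threshold of 0.05 after Benjamini-Hochberg adjustment over all genes (limma; smallest adjusted p among members 0.696). None of the 17512 genes passed either (0% called; smallest adjusted p 0.0676). At an unadjusted limma p under 0.05, 2 members had a higher mean in Glis3KO2, Tgfb2 and Acvr2a, against 2.15% of all genes in that direction. At the same unadjusted threshold 0 members had a lower mean, against 4.76% of all genes. The split over all genes, 833 lower and 377 higher, became 615 and 472 when normexp background correction and quantile normalization were used, and 1201 and 438 after normexp with the 75th percentile. In a fit blocked on replicate number 3 members were higher at that threshold, Tgfb2, Acvr2a and Bmp4, and 0 lower, against 4.39% and 6.34% of all genes. The groups did not overlap for 1 member, Smad4, which was higher in Glis3KO2 (0.902% of all genes), and for 0 members in the lower direction (2.61% of all genes). Normexp with the 75th percentile gave 2 members higher and 0 lower without overlap, where the shares of all genes were 1.49% and 6.25%. Means were lower in Glis3KO2 for 20 of the 41 kept members and higher for 21, where 59.2% of all genes had a lower mean and 40.8% a higher one. The median difference over the kept members was 0.0037, with quartiles of -0.22 and 0.39, and over all genes it was -0.084, with quartiles of -0.33 and 0.18. The median size of the difference, its sign left aside, was 0.23 for the members and 0.27 for all genes. The median SE of a member's difference was 0.30, larger than that median size.

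**Figure D1:**
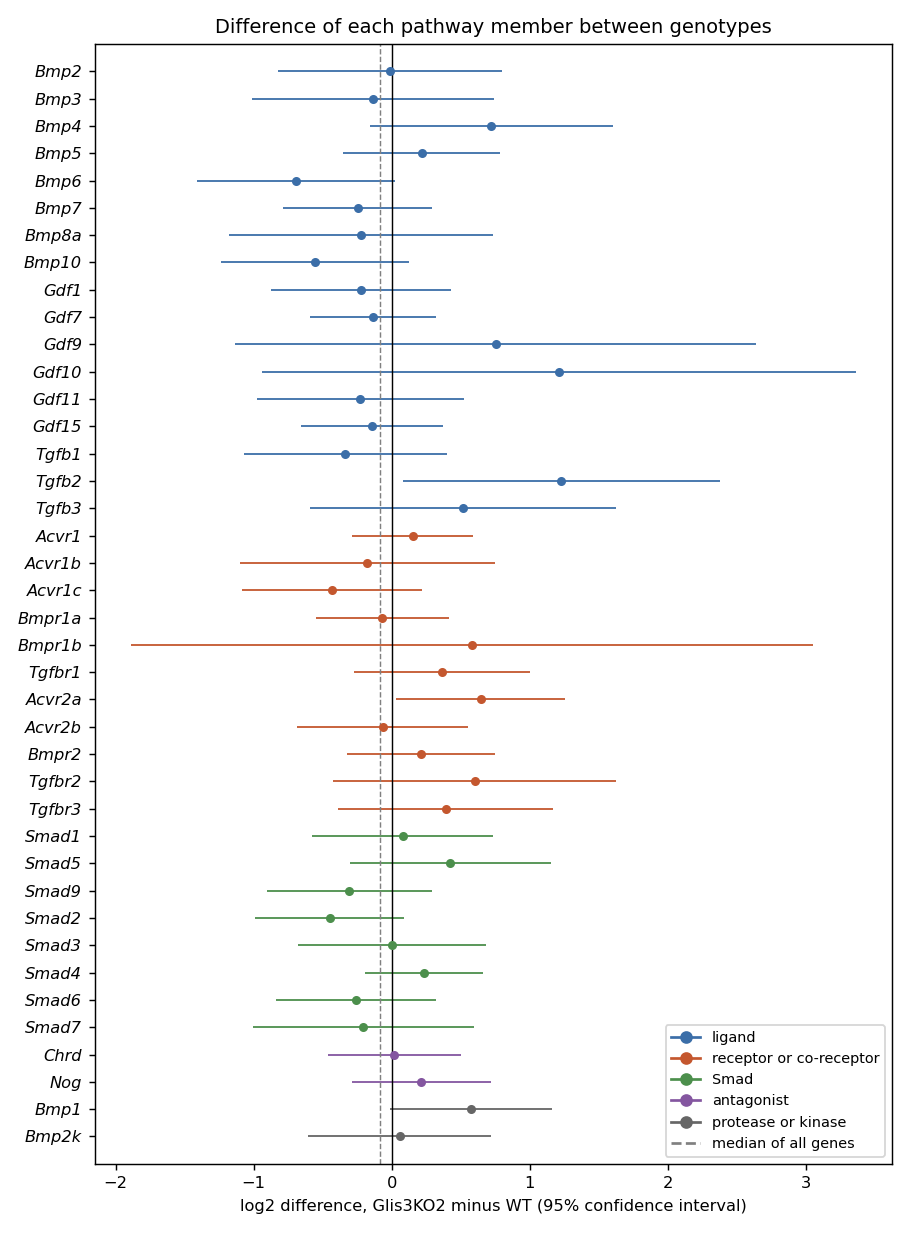
Log2 difference between the genotypes (horizontal axis, Glis3KO2 minus WT) for 40 of the 41 kept members, coloured by role, with bars for the 95% confidence interval from the limma fit and a dashed line at the median of all genes, -0.084. The intervals of Tgfb2 and Acvr2a lie above 0, all other intervals include 0, and those of Bmpr1b, Gdf10 and Gdf9 are the widest.

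Tgfb2 and Acvr2a, the members with the smallest p-values, and Bmp6, the member with the lowest difference, are shown with the stretch of genome around their transcription start. Each stretch runs from 250 bases before the RefSeq start to 50 bases after it on assembly GRCm38.p6, 5′ to 3′ along the gene's strand. Capitals mark exact matches, on either strand, to 5 motifs. Smad proteins in general can bind the sequence CAGAC, and Smads of the BMP branch also bind the sequence GGCGCC. Sp1 binds the box GGGCGG, which is rich in G and C. The last pair were the E-box, spelled CACGTG here, and the TATA box, spelled TATAAA. The Tgfb2 stretch is chr1:186705940-186706239 on the minus strand, the Acvr2a stretch chr2:48813859-48814158 on the plus strand, and the Bmp6 stretch chr13:38345466-38345765 on the plus strand.
Tgfb2: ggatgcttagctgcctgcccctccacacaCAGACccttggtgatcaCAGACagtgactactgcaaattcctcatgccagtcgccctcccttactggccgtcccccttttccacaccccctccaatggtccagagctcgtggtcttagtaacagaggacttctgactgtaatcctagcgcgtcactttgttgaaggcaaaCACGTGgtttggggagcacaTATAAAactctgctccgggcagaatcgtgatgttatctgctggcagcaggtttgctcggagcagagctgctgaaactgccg
Acvr2a: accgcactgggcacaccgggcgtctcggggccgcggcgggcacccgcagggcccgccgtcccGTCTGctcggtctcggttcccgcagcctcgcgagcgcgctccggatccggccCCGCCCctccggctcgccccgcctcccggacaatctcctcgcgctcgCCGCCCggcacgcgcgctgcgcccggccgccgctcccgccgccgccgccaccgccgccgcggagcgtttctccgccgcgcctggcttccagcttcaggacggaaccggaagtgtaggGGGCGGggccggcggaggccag
Bmp6: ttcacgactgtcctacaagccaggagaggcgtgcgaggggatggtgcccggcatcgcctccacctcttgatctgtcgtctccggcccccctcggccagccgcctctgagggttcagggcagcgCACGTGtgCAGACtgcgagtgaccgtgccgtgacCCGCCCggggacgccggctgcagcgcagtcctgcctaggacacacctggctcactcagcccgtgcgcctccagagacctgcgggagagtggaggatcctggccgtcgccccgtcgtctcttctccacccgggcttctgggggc

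The Tgfb2 stretch held CAGAC 221 and 204 bases before the start, an E-box 51 bases before it and a TATA box 31 bases before it, in a sequence of 54.3% G and C. The Acvr2a stretch was 80.3% G and C, with no TATA box. It held CAGAC on the opposite strand 188 bases before the start, and Sp1 boxes 136 and 89 bases before it and at base 29 of the transcribed sequence. Bmp6 had CACGTG 127 bases, CAGAC 119 bases and an Sp1 box 93 bases before its start, in 69.3% G and C. None of the 3 stretches held GGCGCC, and none of the matches printed overlap each other. RefSeq start windows were at hand for 33 of the 47 members, 41 windows in all, beside 32851 windows over all genes. The Sp1 box was in 68.3% of the member windows and 35.7% of all windows, and GGCGCC in 29.3% and 11.9%. CAGAC was in 46.3% of member windows and 49.6% of all, the E-box in 12.2% and 7.15%, and the TATA box in 12.2% and 13.6%. Matches of different motifs may overlap within a window. Member windows were also richer in G and C (median 65.3%, against 52.7% over all windows), and the part of base composition in those shares was not tested. A match describes the letters only and says nothing of binding in these cells.

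Among the ligands, 17 kept genes, means were lower in Glis3KO2 for 11 and higher for 6 (median difference -0.14). The highest differences were those of Tgfb2 (1.23), Gdf10 (1.21), Gdf9 (0.75) and Bmp4 (0.72), and the lowest those of Bmp6 (-0.70) and Bmp10 (-0.56). These names, where they fall outside the rule stated with the methods, were chosen after their values were seen.

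Tgfb2, a TGF-beta ligand expressed by somatic cells of many organs, lay at -0.54, -0.22, -1.64 and -1.95 in WT replicates 1 to 4 and at -0.44, 1.48, -0.036 and -0.43 in Glis3KO2 replicates 1 to 4. Its values overlapped between genotypes: WT replicate 2 was above all Glis3KO2 arrays but replicates 2 and 3, and WT replicates 3 and 4 were the lowest of the 8. The WT mean was -1.08 ± 0.84 and the Glis3KO2 mean 0.14 ± 0.91 (SD, n = 4 each), a 2.34-fold higher signal in Glis3KO2. The difference of 1.23 had an SE of 0.515 and a 95% interval from 0.079 to 2.37 (limma, unadjusted p = 0.0385, adjusted p = 0.696). Within the slides, which each held 2 arrays of either genotype, it was 0.85 on slide 1 and 1.61 on slide 2, and Glis3KO2 was higher in 4 of 4 same-numbered pairs. Leaving out Glis3KO2 replicate 2 gave 0.78, and leaving out WT replicates 3 and 4 gave 0.52. In cells pooled from a tissue, as here, fewer cells of a type and less RNA per cell cannot be told apart.

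Its paralog Tgfb3 lay at -0.43, 0.85, -1.55 and -0.81 in WT replicates 1 to 4 and at -0.11, 0.96, -0.22 and -0.50 in Glis3KO2 replicates 1 to 4, and WT replicates 3 and 4 were again the lowest arrays. WT replicate 2 and Glis3KO2 replicate 2 were the brightest of their groups, and the groups overlapped (difference 0.52, SE 0.497). The Tgfb3 difference was -0.18 when WT replicates 3 and 4 were left out. Tgfb1, the ligand most studied in immune cells, was at -2.04, -2.65, -1.70 and -2.71 in WT replicates 1 to 4 and at -2.33, -2.95, -3.11 and -2.04 in Glis3KO2 replicates 1 to 4. Its groups overlapped over most of their range, with a difference of -0.34 (SE 0.329).

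Bmp4, known to act on primordial germ cells and spermatogonia, lay at -0.49, 0.27, -0.72 and -0.57 in WT replicates 1 to 4 and at 0.25, 1.48, -0.074 and -0.26 in Glis3KO2 replicates 1 to 4. Replicate 2 was the highest of both genotypes and Glis3KO2 was the higher array in each same-numbered pair, but WT replicate 2 was above 3 of the 4 Glis3KO2 arrays. The difference was 0.72, with an SE of 0.395 and a 95% interval from -0.16 to 1.60 (limma, unadjusted p = 0.0974, adjusted p = 0.696). The fit blocked on replicate number gave a limma unadjusted p of 0.0166 and an adjusted p of 0.424. Leaving out Glis3KO2 replicate 2 gave 0.34, and leaving out WT replicates 3 and 4 gave 0.45.

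Bmp6, a BMP known for its part in iron regulation and bone and also made in the gonads, had a lower mean in Glis3KO2. It lay at 0.58, 0.33, 0.65 and 0.31 in WT replicates 1 to 4 and at -0.71, -0.36, -0.58 and 0.73 in Glis3KO2 replicates 1 to 4. The 4 WT arrays were close together and above 3 of the Glis3KO2 arrays, while Glis3KO2 replicate 4 was the highest of all 8. The difference was -0.70 (SE 0.322; 95% interval from -1.41 to 0.021; limma, unadjusted p = 0.0559, adjusted p = 0.696). It was -1.26 on slide 1 and -0.13 on slide 2, and -1.02 without Glis3KO2 replicate 4. A dimmer Bmp6 probe gave -1.15 (limma over all kept probes, unadjusted p = 0.0205), so both probes had a lower mean in Glis3KO2, and the mean of both gave -0.92. The Bmp6 difference was -0.68 when WT replicates 3 and 4 were left out.

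Bmp2 and Bmp8a were dim on these arrays. Bmp2, a broad-acting BMP, lay at -3.98, -3.49, -4.17 and -4.30 in WT replicates 1 to 4 and at -3.63, -3.52, -3.77 and -5.08 in Glis3KO2 replicates 1 to 4. Glis3KO2 replicates 1 to 3 were within the range of WT and replicate 4 was below it, and the difference was -0.014 (SE 0.364). Bmp8a, a BMP of the male germ line, lay at -4.44, -4.67, -4.41 and -3.92 in WT replicates 1 to 4 and at -4.19, -3.99, -5.99 and -4.15 in Glis3KO2 replicates 1 to 4, with Glis3KO2 replicate 3 far below the rest (difference -0.22, SE 0.429). It was well above background on 3 of the 4 Glis3KO2 arrays. Bmp8a and Bmp8b are near-identical copies, so signal of their probes may be shared. Bmp7, a BMP of kidney and gonad development, was at -1.30, -1.77, -1.36 and -1.06 in WT replicates 1 to 4 and at -1.98, -1.39, -1.40 and -1.71 in Glis3KO2 replicates 1 to 4 (difference -0.25, SE 0.242). Its highest array was WT replicate 4 and its lowest Glis3KO2 replicate 1, and the groups overlapped. Without WT replicates 3 and 4 the differences were -0.26 for Bmp2, -0.025 for Bmp8a and -0.086 for Bmp7.

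The other ligands had differences of -0.56 for Bmp10, a BMP of the heart that was well above background on 4 WT arrays and 2 Glis3KO2 arrays, -0.14 for Bmp3 and 0.22 for Bmp5. Gdf1, read from a transcript it shares with Cers1, differed by -0.22, Gdf7 by -0.14, Gdf11 by -0.23 and Gdf15, a stress-induced factor, by -0.14. The 95% intervals of these 7 ligands all include 0. Without WT replicates 3 and 4 the difference was -0.21 for Bmp10 and -0.48 for Bmp3. Gdf10 and Gdf9 spread most. Gdf10 (BMP3b) lay at -2.58, -0.59, -4.69 and -3.05 in WT replicates 1 to 4 and at -0.68, -0.17, -1.12 and -4.11 in Glis3KO2 replicates 1 to 4, and was above background on 3 of 4 WT arrays. Its low arrays were WT replicate 3 and Glis3KO2 replicate 4, and its difference of 1.21 had an SE of 0.966 and was 0.068 without WT replicates 3 and 4. Gdf9, best known from the oocyte, was well above background on 2 WT and 3 Glis3KO2 arrays (difference 0.75, SE 0.845).

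**Figure D2:**
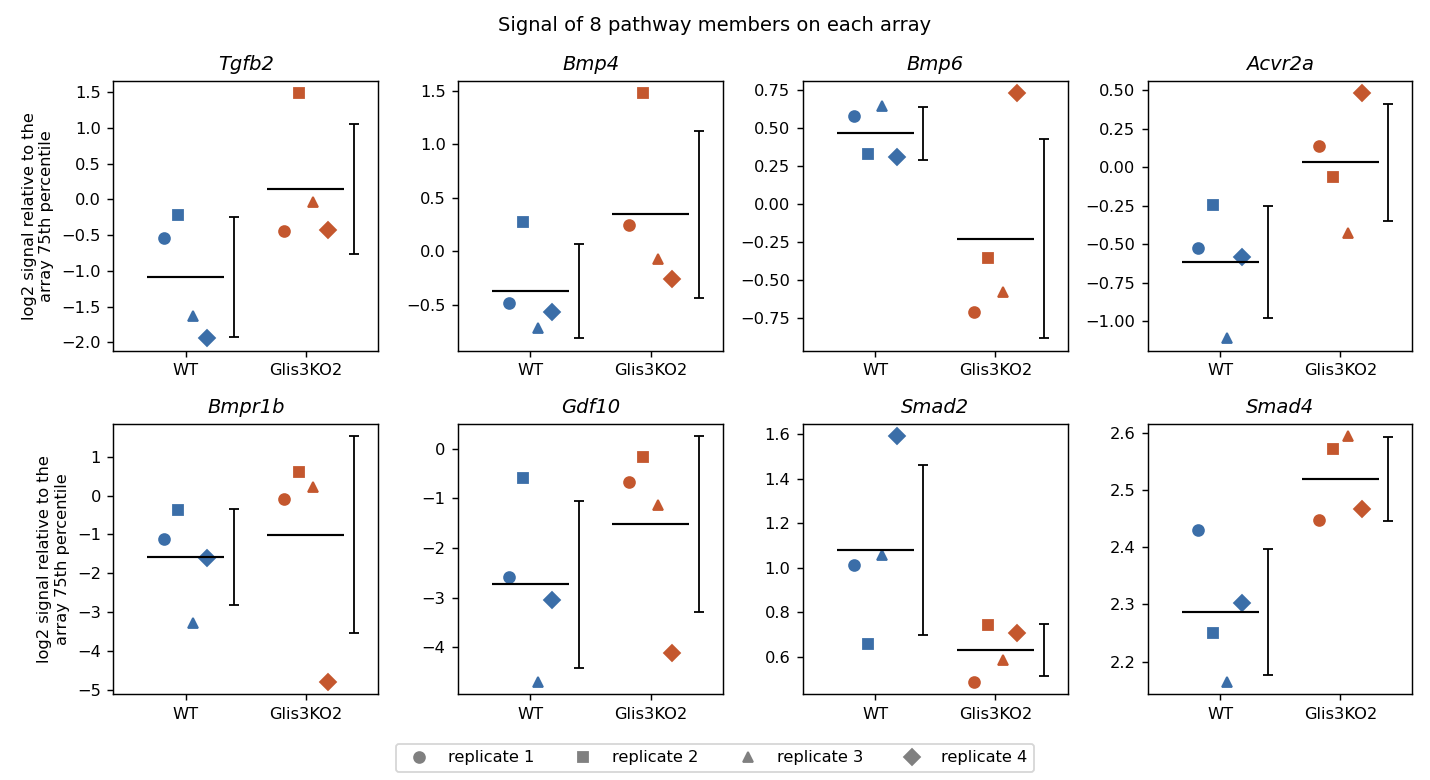
Log2 signal of 8 members on every array, relative to the array's 75th percentile (vertical axis), by genotype, with a marker shape for each replicate number, a horizontal line for the group mean and a bar for ± 1 SD. Smad4 is the panel in which the genotypes do not overlap, Bmp6 shows 3 of 4 Glis3KO2 arrays below every WT array, and Bmpr1b and Gdf10 share their lowest arrays, WT replicate 3 and Glis3KO2 replicate 4.

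Among the receptors, 10 kept genes, means were higher in Glis3KO2 for 6 and lower for 4 (median difference 0.18). The median was 0.41 over the 4 type II receptors and 0.041 over the 6 type I receptors. Acvr2a was the receptor with the highest difference.

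Acvr2a, a type II receptor for activins, GDFs and some BMPs, lay at -0.52, -0.24, -1.11 and -0.58 in WT replicates 1 to 4 and at 0.14, -0.065, -0.43 and 0.48 in Glis3KO2 replicates 1 to 4. Glis3KO2 replicate 3 lay inside the range of WT and the other Glis3KO2 arrays above it. The WT mean was -0.61 ± 0.36 and the Glis3KO2 mean 0.032 ± 0.38 (SD, n = 4 each), a 1.56-fold higher signal in Glis3KO2. The difference of 0.65 (SE 0.275; 95% interval from 0.033 to 1.26) had a limma unadjusted p of 0.0408 and an adjusted p of 0.696. It was 0.67 on slide 1 and 0.62 on slide 2, and 0.41 without WT replicates 3 and 4. The other kept Acvr2a probe differed by -0.029 (SE 0.291), so the probes did not share a direction, and the mean of both gave 0.31.

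The remaining type II receptors overlapped between the genotypes. Tgfbr2, the type II receptor of TGF-beta, lay at 1.06, 1.51, -0.22 and -0.48 in WT replicates 1 to 4 and at 1.62, 1.24, 0.95 and 0.47 in Glis3KO2 replicates 1 to 4. WT replicates 3 and 4 were far below WT replicates 1 and 2, the difference was 0.60 (SE 0.46), and without those arrays it was -0.22. Bmpr2, the type II receptor of BMPs, lay at 2.67, 2.31, 2.22 and 1.83 in WT replicates 1 to 4 and at 2.64, 2.42, 2.61 and 2.19 in Glis3KO2 replicates 1 to 4 (difference 0.21, SE 0.241). All 3 of its kept probes had a higher mean in Glis3KO2, from 0.21 to 0.39, and its difference was -0.019 without WT replicates 3 and 4. Acvr2b lay at -3.01, -3.96, -3.38 and -2.80 in WT replicates 1 to 4 and at -3.57, -3.30, -3.32 and -3.22 in Glis3KO2 replicates 1 to 4 (difference -0.066, SE 0.277), with every Glis3KO2 array inside the WT range.

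Of the type I receptors, Tgfbr1 (ALK5, the TGF-beta receptor kinase) lay at 2.53, 2.10, 1.52 and 1.70 in WT replicates 1 to 4 and at 2.68, 2.33, 2.41 and 1.87 in Glis3KO2 replicates 1 to 4. Glis3KO2 was higher in 4 of 4 same-numbered pairs and its 2 probes gave 0.36 and 0.33, with an SE of 0.286 for the first. The Tgfbr1 difference was 0.0097 without WT replicates 3 and 4, its lowest arrays. Bmpr1a (ALK3), a BMP receptor made by germ and somatic cells, lay at 1.15, 1.67, 1.42 and 1.51 in WT replicates 1 to 4 and at 1.25, 1.59, 1.17 and 1.47 in Glis3KO2 replicates 1 to 4. The groups covered nearly the same range (difference -0.069, SE 0.216), and its other probe gave 0.15. Acvr1 (ALK2) was at 0.38, 0.57, 0.23 and 0.24 in WT replicates 1 to 4 and at 0.51, 0.52, 0.43 and 0.57 in Glis3KO2 replicates 1 to 4. WT replicate 2 was just above the highest Glis3KO2 array. The Acvr1 difference was 0.15 (SE 0.196), and 0.029 without WT replicates 3 and 4.

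Bmpr1b (ALK6), another BMP type I receptor, had the widest spread of all members. It lay at -1.11, -0.37, -3.28 and -1.60 in WT replicates 1 to 4 and at -0.097, 0.60, 0.23 and -4.78 in Glis3KO2 replicates 1 to 4. Glis3KO2 replicates 1 to 3 were above every WT array, and Glis3KO2 replicate 4 was below every one. The difference of 0.58 had an SE of 1.11, and leaving out Glis3KO2 replicate 4 gave 1.84 where leaving out WT replicates 3 and 4 gave -0.27. The activin type I receptors had lower means in Glis3KO2, with differences of -0.18 (SE 0.414) for Acvr1b and -0.43 (SE 0.291) for Acvr1c, a receptor for Nodal and GDFs whose other kept probe gave -0.32. These differences were -0.094 for Acvr1b and -0.082 for Acvr1c without WT replicates 3 and 4. Tgfbr3 (betaglycan), the co-receptor that presents TGF-beta 2 and inhibin, lay at 2.06, 2.17, 1.77 and 0.83 in WT replicates 1 to 4 and at 1.95, 2.54, 2.37 and 1.52 in Glis3KO2 replicates 1 to 4. WT replicate 4 was the lowest array, and the difference of 0.39 (SE 0.349) was -0.019 without WT replicates 3 and 4.

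The 8 Smads were split evenly, with 4 lower and 4 higher means in Glis3KO2 (median difference -0.10). Smad4, the partner shared by both branches, lay at 2.43, 2.25, 2.17 and 2.30 in WT replicates 1 to 4 and at 2.45, 2.57, 2.59 and 2.47 in Glis3KO2 replicates 1 to 4. Every Glis3KO2 array was above every WT array, by 0.018 at the closest same-numbered pair. The WT mean was 2.29 ± 0.11 and the Glis3KO2 mean 2.52 ± 0.073 (SD, n = 4 each), a 1.18-fold higher signal. The difference of 0.23 had an SE of 0.192 after limma's moderation and a 95% interval from -0.19 to 0.66 (limma, unadjusted p = 0.253, adjusted p = 0.753). It was 0.22 on slide 1 and 0.24 on slide 2. The second Smad4 probe gave 0.093 with overlapping groups, and with the mean of both probes the groups overlapped.

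In the BMP branch, Smad5 lay at 3.03, 3.43, 2.39 and 2.56 in WT replicates 1 to 4 and at 4.02, 3.04, 3.21 and 2.85 in Glis3KO2 replicates 1 to 4. Its 3 kept probes all had a higher mean in Glis3KO2, from 0.42 to 0.60, with overlapping groups, and the difference of 0.42 (SE 0.327) was 0.047 without WT replicates 3 and 4. Smad1 lay at 0.57, 1.64, 0.76 and 1.14 in WT replicates 1 to 4 and at 0.86, 1.46, 1.35 and 0.75 in Glis3KO2 replicates 1 to 4 (difference 0.079, SE 0.294). Its dimmer probe gave 0.50 (SE 0.264) with every Glis3KO2 array above every WT array, so the 2 probes differed in size. Smad9 was at -4.25, -3.92, -3.64 and -3.42 in WT replicates 1 to 4 and at -4.37, -4.19, -4.31 and -3.60 in Glis3KO2 replicates 1 to 4 (difference -0.31, SE 0.269; -0.030 without WT replicates 3 and 4). It was the member with a lower Glis3KO2 array in each of 4 same-numbered pairs, which held for 13.6% of all genes. In the other direction 8 members were higher in all 4 pairs, namely Acvr2a, Bmp1, Bmp4, Nog, Smad4, Tgfb2, Tgfb3 and Tgfbr1, against 7.34% of all genes.

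In the TGF-beta branch, Smad2 lay at 1.01, 0.66, 1.06 and 1.59 in WT replicates 1 to 4 and at 0.49, 0.74, 0.58 and 0.71 in Glis3KO2 replicates 1 to 4. WT replicate 2 was inside the range of Glis3KO2 and the other 3 WT arrays were above it (difference -0.45, SE 0.241; limma, unadjusted p = 0.0926, adjusted p = 0.696). Smad2 differed by -0.28 without WT replicate 4 and by -0.21 without WT replicates 3 and 4. Smad3 was at 0.22, 1.25, 0.050 and 0.25 in WT replicates 1 to 4 and at 0.71, 0.72, 0.21 and 0.14 in Glis3KO2 replicates 1 to 4, with WT replicate 2 apart from the others (difference 0.0037, SE 0.305). Its other probe gave 0.42 with overlapping groups, and without WT replicates 3 and 4 the Smad3 difference was -0.29.

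Both inhibitory Smads had lower means in Glis3KO2 and overlapping groups. Smad6 lay at -2.39, -1.65, -1.65 and -2.36 in WT replicates 1 to 4 and at -2.26, -2.17, -2.08 and -2.57 in Glis3KO2 replicates 1 to 4 (difference -0.26, SE 0.26). Smad7 lay at -2.04, -1.01, -0.82 and -0.66 in WT replicates 1 to 4 and at -1.11, -1.52, -1.93 and -0.79 in Glis3KO2 replicates 1 to 4, with WT replicate 1 the lowest array (difference -0.21, SE 0.359). Leaving out WT replicates 3 and 4 gave a Smad7 difference of 0.19.

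Of the secreted antagonists, Nog (noggin) lay at -0.73, -1.21, -0.53 and -0.90 in WT replicates 1 to 4 and at -0.56, -0.85, -0.46 and -0.64 in Glis3KO2 replicates 1 to 4. Glis3KO2 was the higher array in each same-numbered pair, by amounts within the spread of the groups (difference 0.21, SE 0.226). Chrd (chordin) was at 0.086, 0.032, -0.059 and 0.032 in WT replicates 1 to 4 and at -0.19, -0.17, 0.13 and 0.40 in Glis3KO2 replicates 1 to 4 (difference 0.019, SE 0.215), with WT arrays close together and Glis3KO2 arrays on both sides of them.

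The name rule also took 2 genes that are neither ligands, receptors nor Smads. Bmp1 is a secreted protease that cleaves procollagen and chordin, and it lay at 0.31, 0.59, 0.070 and 0.043 in WT replicates 1 to 4 and at 0.39, 1.10, 0.57 and 1.24 in Glis3KO2 replicates 1 to 4. WT replicate 2 was above Glis3KO2 replicates 1 and 3, the difference was 0.57 (SE 0.262; limma, unadjusted p = 0.0543, adjusted p = 0.696), and its other probe gave 0.22. The Bmp1 difference was 0.29 on slide 1, 0.86 on slide 2 and 0.38 without WT replicates 3 and 4. The probe standing for Bmp1 is annotated to a non-coding transcript of the gene, and its other probe to a coding one. Bmp2k, a kinase named for its induction by BMP2, differed by 0.057 (SE 0.297), and its other probes gave -0.31 and 0.48. The Bmp2k difference was 0.37 without WT replicates 3 and 4.

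**Figure D3:**
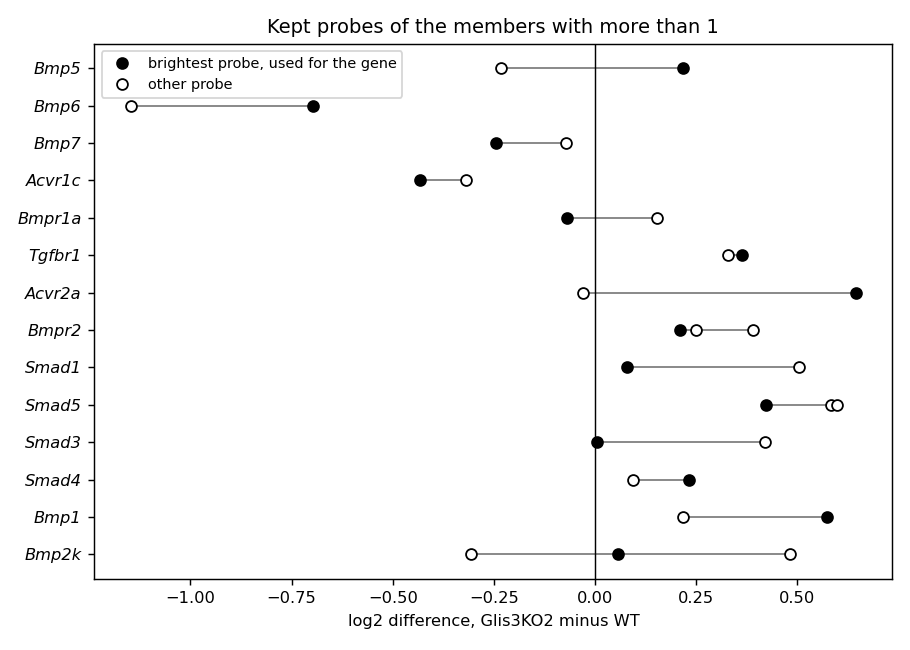
Log2 difference between the genotypes (horizontal axis, Glis3KO2 minus WT) for every kept probe of the 14 members with more than 1, with the probe of highest mean filled and the others open. The probes lie on both sides of 0 for Acvr2a, Bmp2k, Bmp5 and Bmpr1a, on the higher side for 7 members and on the lower side for 3.

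No difference is given for the 6 members that were not kept. Gdf3 and Grem1 were not well above background on any array. Bmp8b and Gdf2 were well above it on 2 WT arrays and 1 Glis3KO2 array, Gdf6 on 1 and 2, and Bmp15, an oocyte factor, on 0 and 2. These counts give no order, since a signal near background is only a bound.

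Beside the members, 79 other genes of the pathway were listed, chosen with earlier results of these data known, of which 71 were kept. After adjustment 0 of the 71 passed (limma). At an unadjusted limma p under 0.05, 3 had a lower mean in Glis3KO2 and 3 a higher one, beside the 4.76% and 2.15% of all genes, and the median difference was 0.088. A fit blocked on replicate number gave 5 lower and 10 higher, where the shares of all genes were 6.34% and 4.39%.

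The lower genes were Hjv, Lefty2 and Msx2. Hjv (hemojuvelin), a BMP co-receptor of the repulsive guidance molecule family, lay at -2.27, -3.72, -3.59 and -3.99 in WT replicates 1 to 4 and at -4.84, -5.42, -4.30 and -5.07 in Glis3KO2 replicates 1 to 4. Every Glis3KO2 array was below every WT array, but only 1 of the 4 was well above background (difference -1.52, SE 0.394; limma, unadjusted p = 0.00325, adjusted p = 0.696). The filter thus kept Hjv mainly through its WT arrays, and with Glis3KO2 signals near background its difference and order are only bounds. The Hjv difference was -0.37 after normexp correction and quantile normalization. Lefty2, an inhibitor of Nodal, lay at -3.35, -4.19, -3.29 and -3.54 in WT replicates 1 to 4 and at -4.34, -4.08, -4.44 and -4.64 in Glis3KO2 replicates 1 to 4 (difference -0.78, SE 0.26). Glis3KO2 replicates 1, 3 and 4 were below every WT array, and the difference was -0.090 after normexp and quantile normalization. Msx2, a homeobox gene induced by BMPs, lay at -2.44, -2.63, -1.85 and -2.13 in WT replicates 1 to 4 and at -2.60, -2.96, -3.08 and -3.27 in Glis3KO2 replicates 1 to 4 (difference -0.72, SE 0.253). WT replicate 2 was just below the top Glis3KO2 array, and the same alternative gave -0.28.

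The higher genes were Chrdl1, Ltbp1 and Rgma. Chrdl1 (chordin-like 1), a secreted BMP antagonist, lay at -1.81, -2.10, -3.37 and -2.63 in WT replicates 1 to 4 and at -0.56, -0.63, -1.27 and -2.09 in Glis3KO2 replicates 1 to 4. Glis3KO2 replicate 4 was inside the WT range and the other 3 were above it (difference 1.34, SE 0.424; limma, unadjusted p = 0.0102, adjusted p = 0.696). The Chrdl1 difference was 0.49 after normexp with the 75th percentile and 0.82 without WT replicates 3 and 4. Ltbp1, which holds latent TGF-beta in the matrix, lay at -1.55, -1.12, -1.35 and -1.55 in WT replicates 1 to 4 and at -1.04, 0.38, -0.84 and -0.57 in Glis3KO2 replicates 1 to 4. Its groups did not overlap, with Glis3KO2 replicate 2 the highest (difference 0.88, SE 0.316), and the difference was 0.42 after normexp with the 75th percentile. Rgma, a BMP co-receptor, lay at -0.42, 0.85, -0.80 and -0.73 in WT replicates 1 to 4 and at 0.46, 1.42, 0.74 and 0.035 in Glis3KO2 replicates 1 to 4, with WT replicate 2 above 3 of the 4 Glis3KO2 arrays (difference 0.94, SE 0.417). Without WT replicates 3 and 4 the Rgma difference was 0.45.

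By list, means were lower in Glis3KO2 for 8 of 9 other ligands of the superfamily (Inha, Inhbb, Nodal and Amh among them) and higher for 9 of 10 other secreted antagonists. For Inhbb and Amh the difference went from -0.51 and -0.16 to 0.47 and 0.0099 without WT replicates 3 and 4. Inha and Nodal stayed below 0, at -0.18 and -0.34. The antagonists included Fst (follistatin, which traps activin) at 1.01 (SE 0.491) and Fstl1 at 0.94 (SE 0.432), which were 1.70 and 0.45 without WT replicates 3 and 4. Another antagonist, at 0.012 with all arrays, lay at -0.42 without them, so the 9 did not all stay higher. Genes for latent TGF-beta binding and activation were lower for 2 and higher for 6, and other receptors and co-receptors lower for 4 and higher for 6. Intracellular regulators divided into 9 and 9, and target genes into 9 lower and 11 higher, some genes standing in more than 1 list. These counts stand beside 59.2% lower and 40.8% higher over all genes, and the lists themselves were not tested. Of the targets, Id1, a direct target of BMP Smads, lay at -1.26, -0.29, -2.87 and -2.10 in WT replicates 1 to 4 and at -1.01, 0.84, -1.18 and -0.11 in Glis3KO2 replicates 1 to 4. WT replicates 3 and 4 were its lowest arrays and WT replicate 2 was above 2 of the Glis3KO2 arrays, and the difference of 1.27 (SE 0.592; limma, unadjusted p = 0.0583, adjusted p = 0.696) was 0.41 without those WT arrays. Id3 differed by 0.60 (SE 0.408) and Id2 by 0.30 (SE 0.499), with Id2 at -0.15 without them. Id1, Id2 and Id3 are given after their values were seen, and all had a higher mean. Targets with a lower mean included Msx2, described above, at -0.72 and at -0.44 without those WT arrays. The target list thus did not share a direction.

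Marker lists of the cells that the isolation could hold were read on the same arrays. Of 20 germ cell markers 19 were kept, all but Dppa3 well above background on all 8 arrays, so markers of the labelled cell type were detected. Their mean log2 signal ran from -0.51 to 0.97 in WT and from -0.92 to -0.55 in Glis3KO2, and 18 of 19 had a lower mean in Glis3KO2. All 20 interstitial stroma markers had a higher mean in Glis3KO2, with list means from 0.57 to 2.40 in WT and from 1.65 to 3.21 in Glis3KO2, and of these Dpt and Mfap5 were not well above background on every array. All 15 peritubular and smooth muscle markers had a higher mean too, from 0.21 to 1.81 in WT and from 0.89 to 2.35 in Glis3KO2. Means were higher for 13 of 15 macrophage markers (list means -0.063 to 1.49 in WT, 0.44 to 1.70 in Glis3KO2) and lower for 12 of 15 Sertoli markers (0.31 to 1.51, and 0.030 to 1.47). Leydig markers were lower for 7 of 9 (0.13 to 2.19, and 0.51 to 1.19) and endothelial markers divided into 5 and 5 (-2.31 to -1.12, and -2.13 to -1.51).

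The marker lists were also read without WT replicates 3 and 4, a choice made after seeing the data. The difference of the list means went from -0.84 to -0.21 for germ cells, from 0.90 to 0.32 for interstitial stroma and from 0.86 to 0.25 for peritubular and smooth muscle cells. Then 16 of the 19 germ cell markers had a lower mean in Glis3KO2, and 17 of the 20 stroma and 12 of the 15 peritubular markers a higher one. The sign turned for macrophages (0.35 to -0.22), Sertoli cells (-0.28 to 0.26) and endothelial cells (0.11 to -0.23), and the Leydig difference went from -0.34 to -0.57.

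WT replicates 3 and 4 had the highest germ cell means, 0.63 and 0.97, and the lowest stroma means, 0.72 and 0.57. The same arrays had the lowest Tgfb2 and Tgfbr2 signals, and the part of cell makeup in the member differences was not tested. Without these WT arrays the differences of Tgfb3, Bmpr1b, Bmpr2, Tgfbr2 and Tgfbr3 were below 0. At an unadjusted limma p under 0.05 that fit had 0 members in the higher direction, against 2.05% of all genes. On both slides the WT arrays lay at the first 2 positions and the Glis3KO2 arrays at the last 2, so an effect of genotype and one of slide position cannot be told apart.

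**Figure D4:**
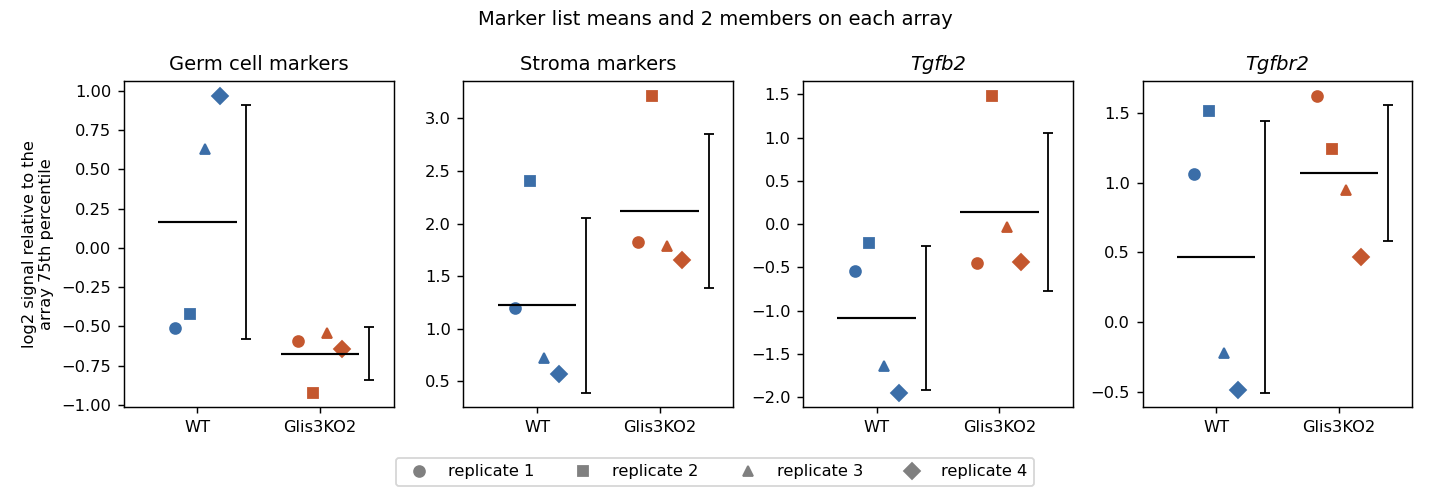
Mean log2 signal of the germ cell and interstitial stroma marker lists beside Tgfb2 and Tgfbr2 on each array (vertical axis, relative to the array's 75th percentile), with a shape for each replicate number, a line for the group mean and a bar for ± 1 SD. WT replicates 3 and 4 are the highest for germ cell markers, 0.63 and 0.97, and the lowest for stroma markers, 0.72 and 0.57, and for both genes.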

How the data were processed

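In the deposited scanner files each spot has a linear intensity, which Agilent's software (Feature Extraction, version 12.0.0.7) had background-subtracted and detrended, per the file headers. The deposited value table equals that intensity on 100% of spots, so it is no separate normalization; its column medians run from 67.2 to 143.6 (linear, not centred). Per the labels' protocols, RNA was amplified with the NuGEN Ovation Pico WTA System before labelling, which adds error of its own.

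From the intensities, log2 values were computed relative to the array's own 75th percentile of non-control spots, leaving out 73 to 109 outlier-flagged spots per array. The 75th percentiles ran from 243 to 533. Probes were named by RefSeq accession through a GRCm38.p6 gene table (28223 matched 1 gene, 12951 stayed unnamed); headers give mm9, and no probe coordinates are printed. The filter kept probes that were well above background on 4 or more of 8 arrays, whatever the group (36435), less 14 with an outlier-flagged spot in the fit. The brightest probe stood for its gene. Genotype was fitted with limma 3.58.1 in R 4.3.3 (lmFit, eBayes; checked on simulated data), adjusting p over all genes.

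The members and the lists were chosen with earlier results of these data known. Per-array values are given for members and other pathway genes with an unadjusted p under 0.05 or groups that do not overlap, and for Glis3. They are also given for 29 listed members of known testis relevance, where these were kept and are reported by name. Bmp1, Bmp6, Gdf10, Id1, Id3 and the other genes outside that rule were chosen after their values were seen. 1 kept member and 1 other pathway gene are not reported here by name, though they are in the counts. Promoter sequences are RefSeq's.

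Replicates 1 and 3 lay on slide 1 and replicates 2 and 4 on slide 2. The replicate numbers were checked for pairing: deviations of same-numbered arrays from their group means correlated across genes at r = 0.16, 0.34, 0.18 and 0.13 (genes are not independent replicates), all over 0.1, so a fit with the number as a block was run beside the unblocked one. WT replicate 3 with Glis3KO2 replicate 4 (0.14) and WT replicate 4 with Glis3KO2 replicate 3 (0.12) correlated as well. Alternatives were other background corrections, normalizations, filters, probe rules, blocks and spread models, and arrays left out. Normexp used median spot and background intensities.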

Additional observations from a re-analysis of the deposited data

Results flagged for a closer look

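In 4 of the 98 groups of 4 arrays examined (each of 49 genes in each genotype), 1 array lay far from the other 3. Its gap, as a share of the group's range, was over Dixon's 95% critical value. Chance alone gives such an array in about 5% of groups. The 49 genes were the 40 members reported by name, the other pathway genes with an unadjusted limma p under 0.05 or groups that do not overlap, Id1, Id3 and Glis3. Bmpr1b stood at -4.78 in Glis3KO2 replicate 4, against -0.097 to 0.60 in the other Glis3KO2 arrays, and without that array its difference was 1.84 in place of 0.58. Bmp8a stood at -5.99 in Glis3KO2 replicate 3, against -4.19 to -3.99, and its difference was then 0.25 in place of -0.22. Bmp2 stood at -5.08 in Glis3KO2 replicate 4, against -3.77 to -3.52, and its difference was then 0.35 in place of -0.014. Smad3 stood at 1.25 in WT replicate 2, against 0.050 to 0.25 in the other WT arrays, and its difference was then 0.27 in place of 0.0037.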

How the results depend on the processing

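No member passed an adjusted p of 0.05 under any alternative run, and of 926 values of the 49 genes defined above under alternatives 0 did. With quantile normalization of the log2 signal 1 gene outside the pathway was called over all genes (Gm16702, -2.63, limma adjusted p = 0.0245). Normexp with the 75th percentile moved the median of all genes from -0.084 to -0.23 and that of the members to -0.23, so relative to all genes the members moved from 0.087 to 0.0042. At an unadjusted p under 0.05 that setting gave 0 members lower and 1 higher, against 6.86% and 2.5% of all genes. Of the other pathway genes, 5 were lower and 4 higher. In the same setting 0 members were lower and 2 higher without overlap, against 6.25% and 1.49% of all genes. Normexp with quantile normalization gave 2 members lower and 3 higher at the same p threshold, against 3.51% and 2.7% of all genes. It gave 0 members lower and 2 higher without overlap, against 2.38% and 1.03%, and 5 pathway genes lower and 3 higher. The mean over a gene's probes gave 1 member lower (Bmp6) and 1 higher (Tgfb2), against 5.04% and 2.18% of all genes. It gave 0 members without overlap, against 2.48% of all genes lower and 0.994% higher. The replicate block gave 3 members higher, against 2 without it (Bmp4 was added), 0 lower, and 5 pathway genes lower and 10 higher, while the shares of all genes rose from 4.76% to 6.34% lower and from 2.15% to 4.39% higher. It changed no call at the adjusted threshold. Without WT replicates 3 and 4, 0 members were higher and 0 lower, against 2.05% and 2.35% of all genes. Leaving out 1 array at a time gave 0 to 3 members lower, 0 to 5 higher, 0 to 4 lower and 1 to 6 higher without overlap, a member median from -0.040 to 0.11, and 2 to 6 pathway genes lower and 2 to 10 higher. Over all genes the shares moved too, from 2.56% to 9.17% lower, 1.23% to 4.60% higher, and 3.18% to 10.6% lower and 1.34% to 3.57% higher without overlap, each highest without WT replicate 2. The lower end of members higher came without WT replicate 3, WT replicate 4 or Glis3KO2 replicate 2 (0 each), and 1 remained in number without WT replicate 1 or Glis3KO2 replicate 3. The upper ends of the counts came without WT replicate 2, and that of the member median, 0.11, without Glis3KO2 replicate 4. Without Glis3KO2 replicate 4, 1 member was lower and 3 higher at an unadjusted p under 0.05, against 4.49% and 3.18% of all genes. In that fit 2 members were lower and 2 higher without overlap, against 5.4% and 2.54% of all genes, and 5 pathway genes were higher. Without Glis3KO2 replicate 3 the median was 0.082 and 2 members were higher without overlap, against 1.91% of all genes. Leaving out Glis3KO2 replicate 2 gave 1 member lower without overlap, against 4.16% of all genes.

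Of the same 49 genes, 28 kept their sign under every alternative run. Outside the 49, the signs of Id2, Inhbb and Amh turned without WT replicates 3 and 4, as given above. The rest of this paragraph covers the 49. The sign turned with normexp and the 75th percentile for Bmpr1a (0.067), Nog (-0.098), Bmp2k (-0.26), Bmp5 (-0.44) and Gdf9 (-0.26). With normexp and quantile normalization it turned for Bmp2 (0.050) and Bmp8a (0.051). With quantile normalization of log2 signal it turned for Bmp2 (0.18), Acvr2b (0.0026), Smad3 (-0.0030) and Bmp3 (0.022). With the mean over probes it turned for Bmpr1a (0.042) and Bmp5 (-0.0076). Without WT replicates 3 and 4 it turned for Tgfb3 (-0.18), Bmpr1b (-0.27), Bmpr2 (-0.019), Acvr2b (0.13), Tgfbr2 (-0.22), Tgfbr3 (-0.019), Smad1 (-0.0012), Smad3 (-0.29), Smad7 (0.19), Chrd (-0.017) and Gdf15 (0.057). With 1 array left out it turned for Acvr1b (-0.57 to 0.20), Acvr2b (-0.29 to 0.098), Bmp2 (-0.17 to 0.35), Bmp2k (-0.068 to 0.26), Bmp3 (-0.37 to 0.20), Bmp8a (-0.42 to 0.25), Bmpr1a (-0.17 to 0.0085), Chrd (-0.10 to 0.097), Gdf11 (-0.53 to 0.0018), Smad1 (-0.073 to 0.29) and Smad3 (-0.13 to 0.27). The cause of these changes was not tested.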
